A study of Mus musculus with 35 samples.

Results

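The genes described here encode proteins of the synaptic vesicle and of the machinery that releases transmitter from it. They were taken from the count table by symbol. All 43 listed genes were found, under 44 of its 39109 entries, because Pclo is listed under 2 Ensembl identifiers. All 44 identifiers passed the filter on low counts, with 6 to 128806 counts in a library. They fall into 6 roles: 8 SNARE proteins and their regulators, 8 calcium sensors, 9 vesicle membrane proteins and transporters, 6 synapsins and Rab3 proteins, 9 identifiers of active zone proteins and 4 endocytosis proteins.

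A synaptic vesicle fuses with the terminal membrane when VAMP on the vesicle zippers with syntaxin and SNAP-25 on the membrane, a step that complexins and synaptotagmins couple to calcium. Active zone scaffolds such as Bassoon, Piccolo and RIM hold vesicles near calcium channels, Munc13 proteins prime them for fusion, and dynamin and its partners retrieve the membrane afterwards. Medium-spiny neurons (MSNs), the principal GABAergic cells of the striatum, carry this machinery in their axon terminals. HDAC2, a class I histone deacetylase, is known in neurons as a repressor of synaptic genes.

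RNA-seq was performed on striata of 35 mice aged 21.71 to 23 weeks in 4 groups: 8 Htt+/+ Hdac2 WT mice, 7 HttQ111/+ Hdac2 WT mice, 9 Htt+/+ Hdac2 KO mice and 11 HttQ111/+ Hdac2 KO mice. Htt+/+ mice have 7 CAG repeats recorded, and HttQ111/+ mice, a knock-in model of Huntington's disease, carry 1 Htt allele expanded to between 110 and 144 repeats. The KO mice are homozygous for a floxed Hdac2 allele and carry the D9-Cre transgene, in which Ppp1r1b sequences drive Cre in MSNs, so that other striatal cells keep Hdac2. The study's records list the Hdac2 WT mice as carrying floxed alleles without Cre, on 1 chromosome in 2 Htt+/+ mice and on both in the rest. The sample titles differ, giving the WT mice as Hdac2+/+ and the KO mice as Hdac2D/D. No group carried Cre without the deletion, so the effects of Cre and of the deletion cannot be told apart. The strain background was mixed C57BL/6 and 129, and both sexes were present in each group.

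Gene counts summed to between 50970712 and 77867348 per library. Hdac2, counted over the whole gene and all cells of the tissue, ranged from 95.5 to 111 counts scaled to a common library total (CPM) in the WT libraries and from 89.4 to 101 CPM in the KO libraries, an average log2 fold change of -0.10 (edgeR adjusted p = 0.00171). The deletion removes only some exons of Hdac2. The study reports that reads over those exons were markedly depleted in KO mice and that most striatal cells lacked detectable HDAC2 protein. RNA was extracted on 6 dates, of which 26 May, 31 May and 3 June held KO striata only and 24 May held WT striata only. The remaining dates, 25 and 27 May, held 1 KO striatum each, so that date and Hdac2 genotype were largely confounded. Markers of cortical projection neurons (9 of 10 listed were measured) stood apart in 3 libraries, with a mean log2 CPM of 4.17 in HttQ111/+ Hdac2 WT replicate 7, 3.04 in Htt+/+ Hdac2 KO replicate 6 and 2.64 in Htt+/+ Hdac2 KO replicate 2, against -0.33 to 2.14 in the other 32. Their summed level ran from 24.6 to 82.0 CPM in Htt+/+ Hdac2 WT, 19.97 to 516 CPM in HttQ111/+ Hdac2 WT, 22.5 to 209 CPM in Htt+/+ Hdac2 KO and 24.5 to 67.9 CPM in HttQ111/+ Hdac2 KO. MSN markers (10 of 11 measured) were high in every library, at a mean log2 CPM of 8.90 to 9.53. Because these are bulk striata, fewer cells of a type and less RNA per cell cannot be told apart from these counts. In stained sections, the study found no significant drop in the number of cells with the MSN protein DARPP-32 in Hdac2 KO mice.

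In Htt+/+ Hdac2 WT striata the release genes spanned a wide range of levels, compared here as CPM per kb of exon. Reads were counted over the whole gene, introns included, so that this scale overstates genes with long introns. Cplx2, a complexin, was highest at a median of 385 CPM per kb, and its range over the 8 libraries (336 to 432) did not meet that of the next gene. Cplx1 and the vesicle SNARE Vamp2 followed at 218 and 215 CPM per kb and overlapped each other. At the other end lay Cplx3 at 0.714, Unc13b at 0.643, Doc2a at 0.459 and Slc17a6 at 0.0967 CPM per kb. Slc32a1, the vesicular GABA transporter that MSNs use, was at 79.1 CPM per kb, whereas Slc17a6, the vesicular glutamate transporter of thalamic neurons, had as few as 6 counts in a library.

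**Figure D1:**
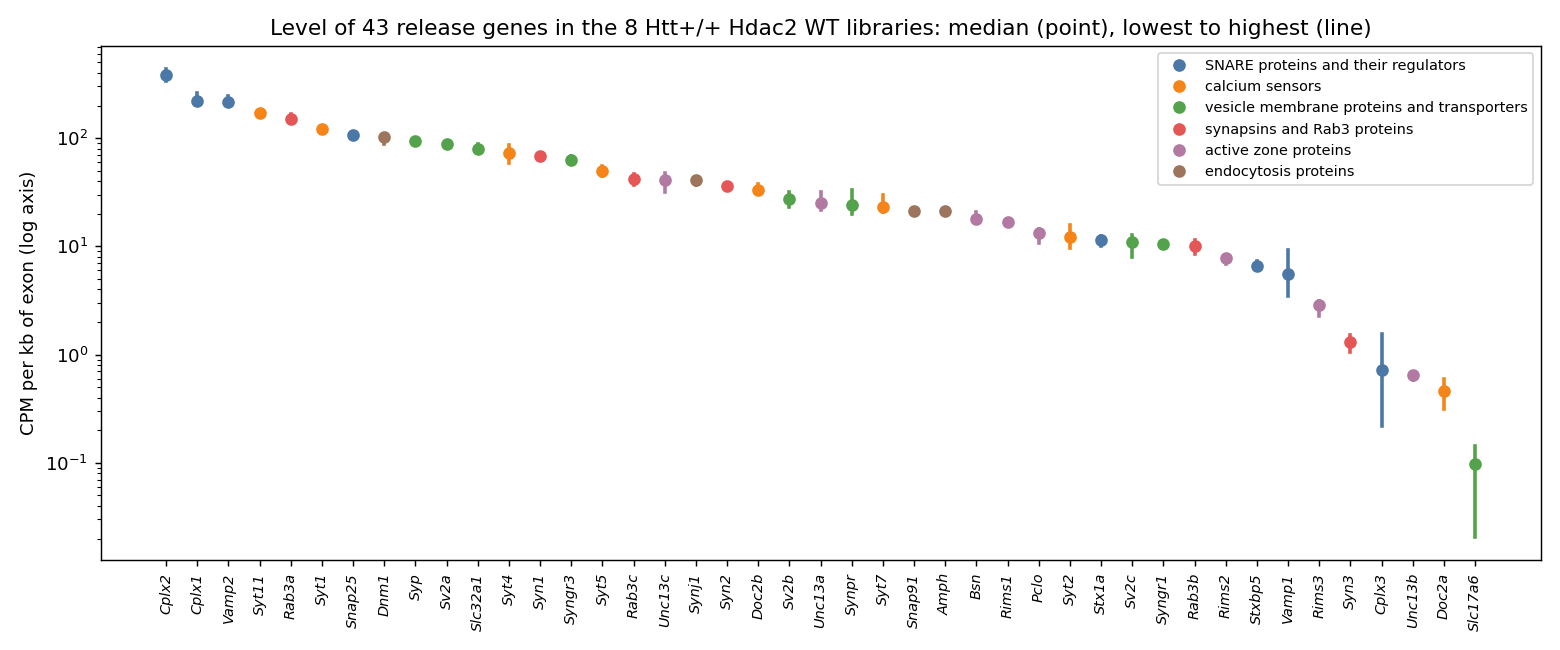
Level of each of the 43 release genes in the 8 Htt+/+ Hdac2 WT libraries as CPM per kb of exon on a log axis, with the median as a point, the lowest to highest library as a line and colour for the role. Cplx2 is highest at 385 and Slc17a6 lowest at 0.0967; the second Pclo identifier has no exon length and is not drawn.

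Deletion of Hdac2 in MSNs was accompanied by changes in both directions, most of them small. Averaged over the Htt genotypes, 25 of the 44 identifiers (56.8%) differed between Hdac2 KO and Hdac2 WT striata at an adjusted p under 0.05, by edgeR's quasi-likelihood test with surrogate variables (covariates estimated from the data for unknown factors). Of all 17346 genes tested, 25.0% did. Of the members 10 were higher (22.7%, against 12.9% of all genes) and 15 were lower (34.1%, against 12.1% of all genes). The median log2 fold change was -0.02 over the members and 0.00 over all genes, and the median of its size was 0.11 and 0.08. The leading rises were those of Doc2a, Rab3b, Syp and Unc13c, at 1.45, 1.45, 1.35 and 1.34-fold. The deepest falls were those of Syt2, Sv2b and Synpr, to 0.678, 0.760 and 0.845 of the WT level. All 25 had the same direction in the plain group means of log2 CPM.

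**Figure D2:**
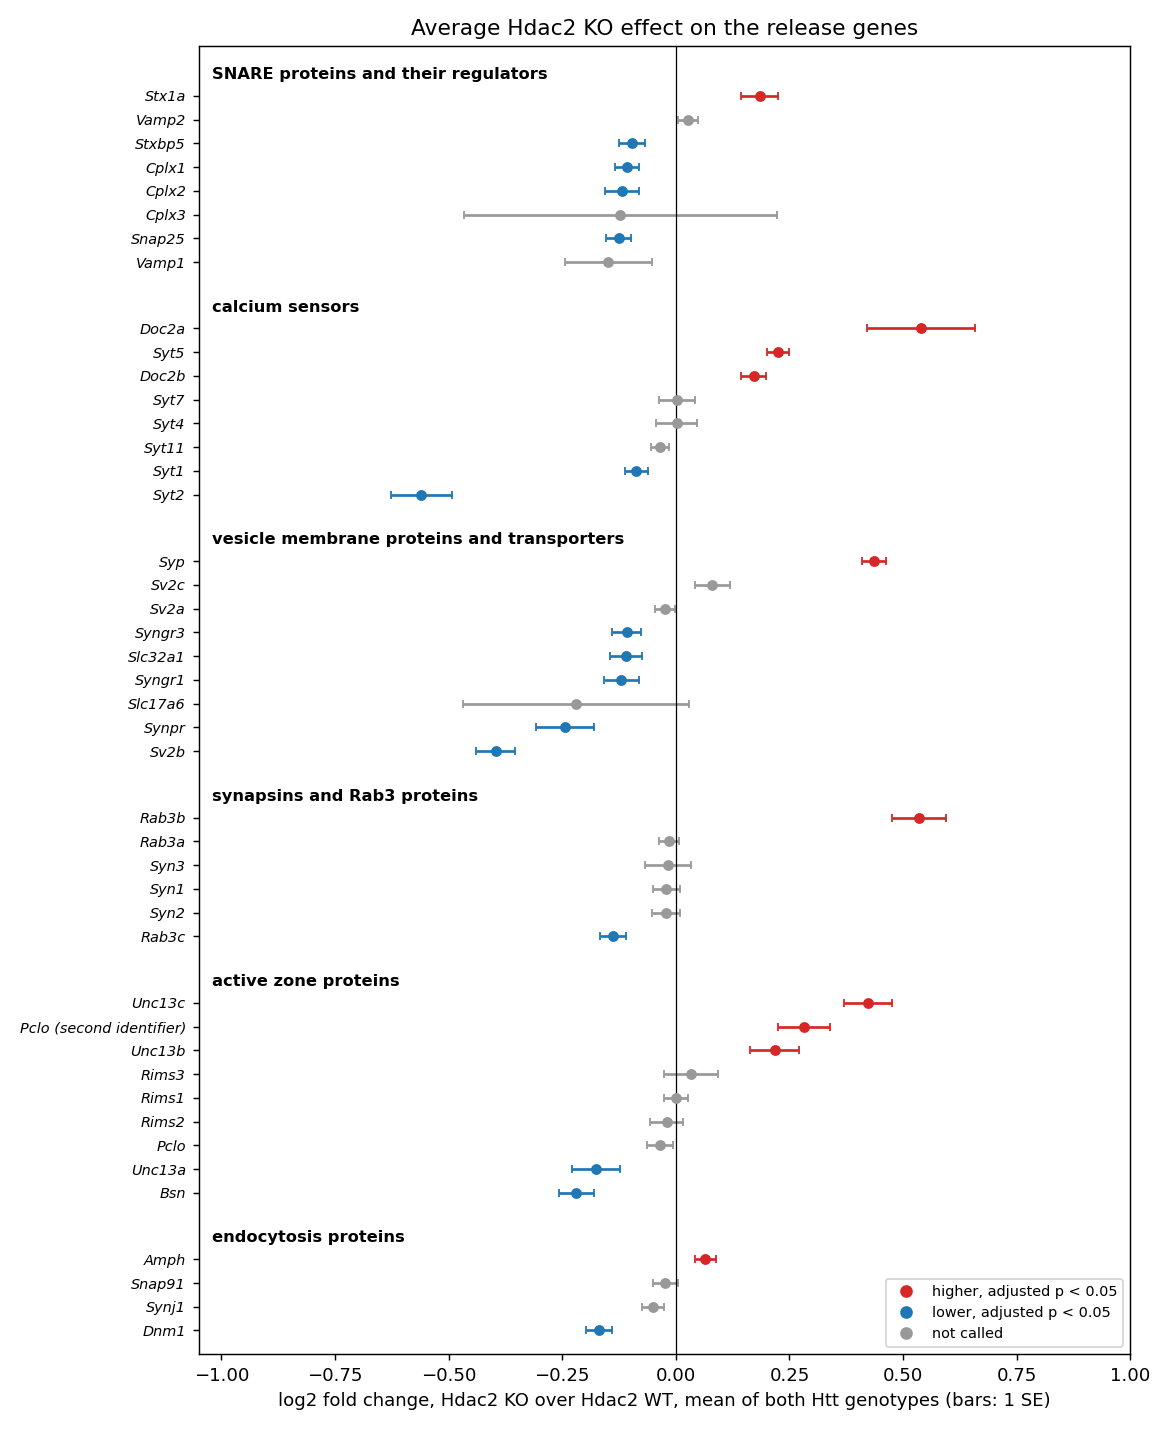
Average log2 fold change of Hdac2 KO over Hdac2 WT (x axis) for the 44 identifiers by role, with bars of 1 SE; red and blue mark higher and lower at an adjusted p under 0.05 and grey the 19 that did not pass. Doc2a, Rab3b, Syp and Unc13c stand highest, Syt2 and Sv2b lowest, and Cplx3 and Slc17a6 have the widest bars.

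The extraction date limits these calls. Only 25 and 27 May held striata of both Hdac2 genotypes, with 1 KO striatum each. A fit with date therefore compares KO with WT within a date on those days only. With date in place of the surrogate variables 4 of the 25 were called (Syt1, Syngr3, Sv2b and Unc13c) and 21 of the 25 kept their direction, the exceptions being Stx1a, Cplx2, Doc2a and Amph, while the median SE over the members went from 0.035 to 0.091. Over all genes a smaller share was called in that fit as well, given below with the other release genes. On 27 May the KO striatum lay above all WT striata of its Htt genotype for 9 of the 10 rises and below them for 12 of the 15 falls, and it lay above them for 1 fall, Cplx2. On 25 May the KO striatum lay above both WT striata of its Htt genotype for 4 of the 10 rises and below both for 3 of them, and below both for 11 of the 15 falls. Those WT striata, HttQ111/+ Hdac2 WT replicates 7 and 4, ranked 1 and 4 among all libraries in cortical markers. The 3 rises below both on 25 May were Stx1a, Unc13b and Amph. On 27 May the KO striatum lay above all WT striata of its Htt genotype for each of them. The part of cortical RNA in these counts was not tested. Without the 3 libraries highest in cortical markers 20 of the 25 calls remained, and without the highest alone 24 did. Over all 15 alternatives tried, 18 of the 25 calls were lost in at most 3, Cplx1, Stx1a and Doc2a in 6, Cplx2 in 7, Slc32a1 in 8, Unc13a in 9 and Amph in 12.

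Promoter sequence was given by RefSeq (build GRCm38.p6) for 33 of the 43 genes, in windows of 300 bases. The motifs searched on both strands were the cAMP response element TGACGTCA, the GC box GGGCGG and the left and right parts, TTCAGCACC and GGACAGC, of RE1, the element bound by the neuronal gene repressor REST. A GC box lay in a window of 27 of the 33 genes (81.8%), against 38.2% of all 27025 genes with a window. It lay in 5 of 6 members called higher, 10 of 13 called lower and 12 of 14 that were not called. The median content of G and C was 62% over the 43 windows of the members and 52.7% over the 32851 windows of all genes. Every member passed the filter on low counts, whereas only 17346 genes were tested in all, so the 27025 include genes that were not. The parts of base content and of this filter in the share with a GC box were not tested. The RE1 left part lay in 2 members (6.06%, against 0.433% of all genes), the right part in 1 (3.03%, against 7.59%) and the cAMP response element in 1 (3.03%, against 2.03%). Such matches are of letters only and were not tested for binding. Stretches that end before the start of the gene are shown for 3 members that rose, for Sv2b, which fell, and for Syn1, which was not called and holds the RE1 left part and the cAMP response element. They lie at chrX:7638330-7638470 (plus strand, Syp), chr4:108878820-108879062 (plus strand, Rab3b), chr9:73969038-73969287 (minus strand, Unc13c), chr7:75309263-75309512 (minus strand, Sv2b) and chrX:20920919-20921168 (minus strand, Syn1), and are written 5′ to 3′ with motif matches in capitals:
Syp: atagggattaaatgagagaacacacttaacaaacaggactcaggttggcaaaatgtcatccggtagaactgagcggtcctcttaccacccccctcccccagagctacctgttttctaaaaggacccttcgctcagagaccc
Rab3b: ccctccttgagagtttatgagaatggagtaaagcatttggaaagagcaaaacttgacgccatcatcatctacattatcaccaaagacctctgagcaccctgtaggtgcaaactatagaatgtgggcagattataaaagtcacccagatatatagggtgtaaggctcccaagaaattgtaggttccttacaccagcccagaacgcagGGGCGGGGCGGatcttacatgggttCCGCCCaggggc
Unc13c: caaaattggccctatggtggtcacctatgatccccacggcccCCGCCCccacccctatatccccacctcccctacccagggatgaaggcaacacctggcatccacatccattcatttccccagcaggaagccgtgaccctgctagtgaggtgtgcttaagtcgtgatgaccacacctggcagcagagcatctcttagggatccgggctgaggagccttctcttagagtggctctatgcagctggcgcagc
Sv2b: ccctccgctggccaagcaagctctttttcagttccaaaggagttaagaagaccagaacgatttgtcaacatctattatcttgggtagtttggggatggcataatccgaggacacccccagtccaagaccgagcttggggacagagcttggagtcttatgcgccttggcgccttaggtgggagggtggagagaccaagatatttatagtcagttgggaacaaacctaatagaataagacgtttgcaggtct
Syn1: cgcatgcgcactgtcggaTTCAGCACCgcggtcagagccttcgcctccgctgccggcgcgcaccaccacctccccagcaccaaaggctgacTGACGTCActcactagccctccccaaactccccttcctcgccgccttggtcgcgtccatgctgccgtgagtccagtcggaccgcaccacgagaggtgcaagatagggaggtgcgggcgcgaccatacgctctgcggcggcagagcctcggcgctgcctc
The capitals mark GC boxes in Rab3b, where a pair of them overlap, and in Unc13c. In Syn1 they mark the RE1 left part followed by the cAMP response element, and the stretches of Syp and Sv2b hold no match. Both genes count among the 27 with a GC box, because their full windows hold 2 and 1 of them past the end of the stretch shown.

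Unc13a, for the priming factor Munc13-1, was the only member with both parts of RE1 in a window, which 14 of the 27025 genes had. The search set no spacing, order or shared strand for the parts, so it does not show a full RE1. They lie on the opposite strand to the gene with 8 bases between them, from base 8 to base 31 after its RefSeq start (chr8:71671727-71671750, written on the minus strand, with the parts in capitals):
Unc13a: GCTGTCCgcgcccccGGTGCTGAA

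Among vesicle membrane proteins and transporters, 1 of 9 rose, 5 fell and 3 did not pass. Syp encodes synaptophysin, an abundant membrane protein of the vesicle. Its level was 450, 488 and 522 CPM (lowest, median, highest) in Htt+/+ Hdac2 WT striata, 488, 578 and 718 CPM in HttQ111/+ Hdac2 WT, 617, 667 and 789 CPM in Htt+/+ Hdac2 KO and 638, 669 and 730 CPM in HttQ111/+ Hdac2 KO. All 9 KO libraries were above all 8 WT libraries in Htt+/+ mice, and in HttQ111/+ mice the overlap came from 1 WT library, replicate 7, the highest in cortical markers. The average log2 fold change was 0.44 ± 0.026 (SE; edgeR adjusted p = 1.97e-13), and 0.25 ± 0.079 with extraction date in the model (edgeR adjusted p = 0.0583). With all libraries no member separated all 20 KO from all 15 WT libraries, as 0.611% of all genes did. Without replicate 7, a library left out after the data were seen, Syp did so. The share of all genes that did so then was not counted.

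Sv2b, for a glycoprotein of the vesicle, moved the other way. It ran at 193, 231 and 268 CPM (lowest, median, highest) in Htt+/+ Hdac2 WT striata, 222, 244 and 303 CPM in HttQ111/+ Hdac2 WT, 139, 167 and 204 CPM in Htt+/+ Hdac2 KO and 135, 156 and 196 CPM in HttQ111/+ Hdac2 KO. The HttQ111/+ groups did not overlap. In Htt+/+ mice the overlap rested on the lowest WT library and on the 2 KO libraries highest in cortical markers. On average the log2 fold change was -0.40 ± 0.043 (edgeR adjusted p = 2.25e-08), and -0.57 ± 0.12 with extraction date in the model (edgeR adjusted p = 0.0031). Its paralogues Sv2a and Sv2c did not pass, with 95% intervals of the log2 difference from -0.07 to 0.02 and from 0.01 to 0.16.

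Synpr encodes synaptoporin, a relative of synaptophysin. It ran at 187, 227 and 315 CPM (lowest, median, highest) in Htt+/+ Hdac2 WT striata, 223, 246 and 286 CPM in HttQ111/+ Hdac2 WT, 174, 200 and 216 CPM in Htt+/+ Hdac2 KO and 178, 200 and 224 CPM in HttQ111/+ Hdac2 KO. The ranges overlapped in both Htt genotypes, in HttQ111/+ mice through 1 of 11 KO libraries (average -0.24 ± 0.063, edgeR adjusted p = 0.00432). The synaptogyrins Syngr1 and Syngr3, further relatives of synaptophysin, fell by 0.12 and 0.11 on the log2 scale, and Slc32a1 fell by 0.11. For Slc32a1 the call was lost under 8 of the 15 alternatives, among them the fits with no covariate, with extraction date and without the 3 libraries highest in cortical markers. Slc17a6 did not pass and had a wide interval, from -0.71 to 0.27.

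Among synapsins and Rab3 proteins, 1 of 6 rose, 1 fell and 4 did not pass. Rab3b encodes a small GTPase of the vesicle. Its level was 29.9, 35.6 and 40.6 CPM (lowest, median, highest) in Htt+/+ Hdac2 WT striata, 32.6, 40.5 and 45.4 CPM in HttQ111/+ Hdac2 WT, 40.7, 49.0 and 60.5 CPM in Htt+/+ Hdac2 KO and 45.8, 52.3 and 60.0 CPM in HttQ111/+ Hdac2 KO. KO and WT libraries did not overlap within either Htt genotype, and 19 of the 20 KO libraries exceeded all 15 WT libraries. The average log2 fold change was 0.54 ± 0.060 (edgeR adjusted p = 5.8e-08), and 0.16 ± 0.096 with extraction date in the model (edgeR adjusted p = 0.376). Its paralogue Rab3c fell by 0.14 on the log2 scale. Rab3a and the synapsins Syn1, Syn2 and Syn3, which tether vesicles into a reserve pool, did not pass and all had an average log2 fold change of -0.02.

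Among active zone proteins, 3 of 9 identifiers rose, 2 fell and 4 did not pass, and the 3 Munc13 genes moved apart. Unc13c, for Munc13-3, ran at 279.1, 363 and 422 CPM (lowest, median, highest) in Htt+/+ Hdac2 WT striata, 311, 362 and 422 CPM in HttQ111/+ Hdac2 WT, 409, 533 and 662 CPM in Htt+/+ Hdac2 KO and 357, 536 and 669 CPM in HttQ111/+ Hdac2 KO. Of the 20 KO libraries 16 exceeded all WT libraries, and the ranges overlapped. On average the log2 fold change was 0.42 ± 0.054 (edgeR adjusted p = 4.69e-07), and 0.73 ± 0.13 with extraction date in the model (edgeR adjusted p = 0.000588). Unc13c, Sv2b and Syt1 were the 3 members called under all 15 alternatives tried for the average effect. Unc13b, for Munc13-2, had medians of 14.6 and 17.6 CPM in the Htt+/+ and HttQ111/+ Hdac2 WT groups and 17.3 and 18.1 CPM in the KO groups (average 0.22 ± 0.054, edgeR adjusted p = 0.0029).

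Unc13a fell. It ran at 276, 320 and 400.1 CPM (lowest, median, highest) in Htt+/+ Hdac2 WT striata, 251, 314 and 334 CPM in HttQ111/+ Hdac2 WT, 274, 289 and 381 CPM in Htt+/+ Hdac2 KO and 178, 270.1 and 322 CPM in HttQ111/+ Hdac2 KO. The ranges overlapped widely, with 2 of 20 KO libraries below all WT libraries. The average log2 fold change was -0.17 ± 0.053 (edgeR adjusted p = 0.0137), and the call was lost under 9 of the 15 alternatives.

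Bsn encodes the scaffold Bassoon. It ran at 265, 288 and 334 CPM (lowest, median, highest) in Htt+/+ Hdac2 WT striata, 249, 273 and 369.7 CPM in HttQ111/+ Hdac2 WT, 203, 260.3 and 280 CPM in Htt+/+ Hdac2 KO and 169, 233 and 274 CPM in HttQ111/+ Hdac2 KO. The ranges overlapped, with 12 of 20 KO libraries below all WT libraries (average -0.22 ± 0.038, edgeR adjusted p = 6.23e-05). Pclo, for the related scaffold Piccolo, did not pass under its main identifier, at -0.03. Its second identifier, a 2.05 kb entry at chr5:14861407-14863459 beyond the end of the main one and of unknown strand, had medians of 10.4 and 11.1 CPM in the WT groups and 12.5 and 11.9 CPM in the KO groups (average 0.28 ± 0.057, edgeR adjusted p = 0.000382). Rims1, Rims2 and Rims3 did not pass, at 0.00, -0.02 and 0.03.

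Among calcium sensors, 3 of 8 rose, 2 fell and 3 did not pass. Syt2 encodes a fast calcium sensor of release. Its level was 74.1, 93.1 and 121 CPM (lowest, median, highest) in Htt+/+ Hdac2 WT striata, 62.1, 84.6 and 99.9 CPM in HttQ111/+ Hdac2 WT, 52.8, 67.4 and 88.9 CPM in Htt+/+ Hdac2 KO and 35.7, 68.8 and 75.1 CPM in HttQ111/+ Hdac2 KO. The ranges overlapped in both Htt genotypes, with 5 of 20 KO libraries below all WT libraries. On average the log2 fold change was -0.56 ± 0.067 (edgeR adjusted p = 1.44e-07), and -0.23 ± 0.17 with extraction date in the model (edgeR adjusted p = 0.48). Syt1, the main sensor for synchronous release, fell by 0.09 on the log2 scale, with medians of 1023 and 1048 CPM in the WT groups and 966 and 936 CPM in the KO groups. In HttQ111/+ mice its KO and WT libraries did not overlap.

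Syt5 encodes a further synaptotagmin. It ran at 107, 119 and 132 CPM (lowest, median, highest) in Htt+/+ Hdac2 WT striata, 115, 132 and 136 CPM in HttQ111/+ Hdac2 WT, 134, 141 and 159 CPM in Htt+/+ Hdac2 KO and 134, 143 and 162 CPM in HttQ111/+ Hdac2 KO. The Htt+/+ groups did not overlap and the HttQ111/+ groups did (average 0.22 ± 0.024, edgeR adjusted p = 2.11e-08). Doc2b, for a high-affinity calcium sensor, rose from medians of 145 and 149 CPM in the WT groups to 170.0 and 166 CPM in the KO groups (average 0.17 ± 0.027, edgeR adjusted p = 1.39e-05). Syt4, Syt7 and Syt11 did not pass.

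Doc2a, the relative of Doc2b, was expressed at a low level. It ran at 0.879, 1.29 and 1.68 CPM (lowest, median, highest) in Htt+/+ Hdac2 WT striata, 0.687, 1.56 and 6.05 CPM in HttQ111/+ Hdac2 WT, 1.25, 1.77 and 4.26 CPM in Htt+/+ Hdac2 KO and 1.18, 1.76 and 2.51 CPM in HttQ111/+ Hdac2 KO. The ranges overlapped in both Htt genotypes, and the highest values, 6.05, 4.26 and 4.07 CPM, were those of the 3 libraries highest in cortical markers. The average log2 fold change was 0.54 ± 0.12 (edgeR adjusted p = 0.000868), and -0.04 ± 0.42 with extraction date in the model (edgeR adjusted p = 0.972).

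Among SNARE proteins and their regulators, 1 of 8 rose, 4 fell and 3 did not pass. Snap25, for the membrane SNARE, had medians of 724 and 703 CPM in the Htt+/+ and HttQ111/+ Hdac2 WT groups and 631 and 624.5 CPM in the KO groups (average -0.13 ± 0.028, edgeR adjusted p = 0.000911). The complexins Cplx1 and Cplx2 fell by 0.11 and 0.12 on the log2 scale and Stxbp5, for the syntaxin-binding protein tomosyn, by 0.10. The plain differences in mean log2 CPM were smaller for Cplx1 and Cplx2, at -0.03 and -0.02, and neither was called with no covariate, sex, date, series of mouse IDs, cortical marker level or the replicate block. With extraction date in the model Cplx2 was at 0.03 ± 0.098 (edgeR adjusted p = 0.91). Stx1a, for syntaxin-1A, rose by 0.18 ± 0.040 (edgeR adjusted p = 0.000764), from medians of 30.6 and 30.8 CPM to 34.4 CPM in both KO groups. With extraction date in the model its estimate was -0.10 ± 0.22. Vamp2 did not pass, with an interval from -0.02 to 0.07, nor did Vamp1 and Cplx3, with intervals from -0.34 to 0.04 and from -0.80 to 0.55.

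Of the 4 endocytosis proteins, 1 rose, 1 fell and 2 did not pass. Dnm1, the neuronal dynamin that pinches vesicles from the membrane, ran at 465, 533 and 556 CPM (lowest, median, highest) in Htt+/+ Hdac2 WT striata, 501, 522 and 664 CPM in HttQ111/+ Hdac2 WT, 445, 484 and 539.8 CPM in Htt+/+ Hdac2 KO and 435, 477 and 518 CPM in HttQ111/+ Hdac2 KO. The ranges overlapped, with 7 of 20 KO libraries below all WT libraries (average -0.17 ± 0.028, edgeR adjusted p = 2.49e-05). Amph, for amphiphysin, was called higher at 0.06 (edgeR adjusted p = 0.0415), a call kept under 3 of the 15 alternatives, and with extraction date in the model it was at -0.07 ± 0.069 (edgeR adjusted p = 0.648). Snap91 and Synj1, for AP180 and synaptojanin-1, did not pass. Over all roles, 16 of the 19 identifiers that did not pass had a 95% interval within 0.2 of 0 on the log2 scale, the exceptions being Vamp1, Cplx3 and Slc17a6. These intervals are those of the fit with surrogate variables, and with extraction date instead the median SE over the members was 0.091. Of the identifiers that did not pass, Synj1 and Syt11 were called lower in 5 and 4 of the 15 alternatives.

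**Figure D3:**
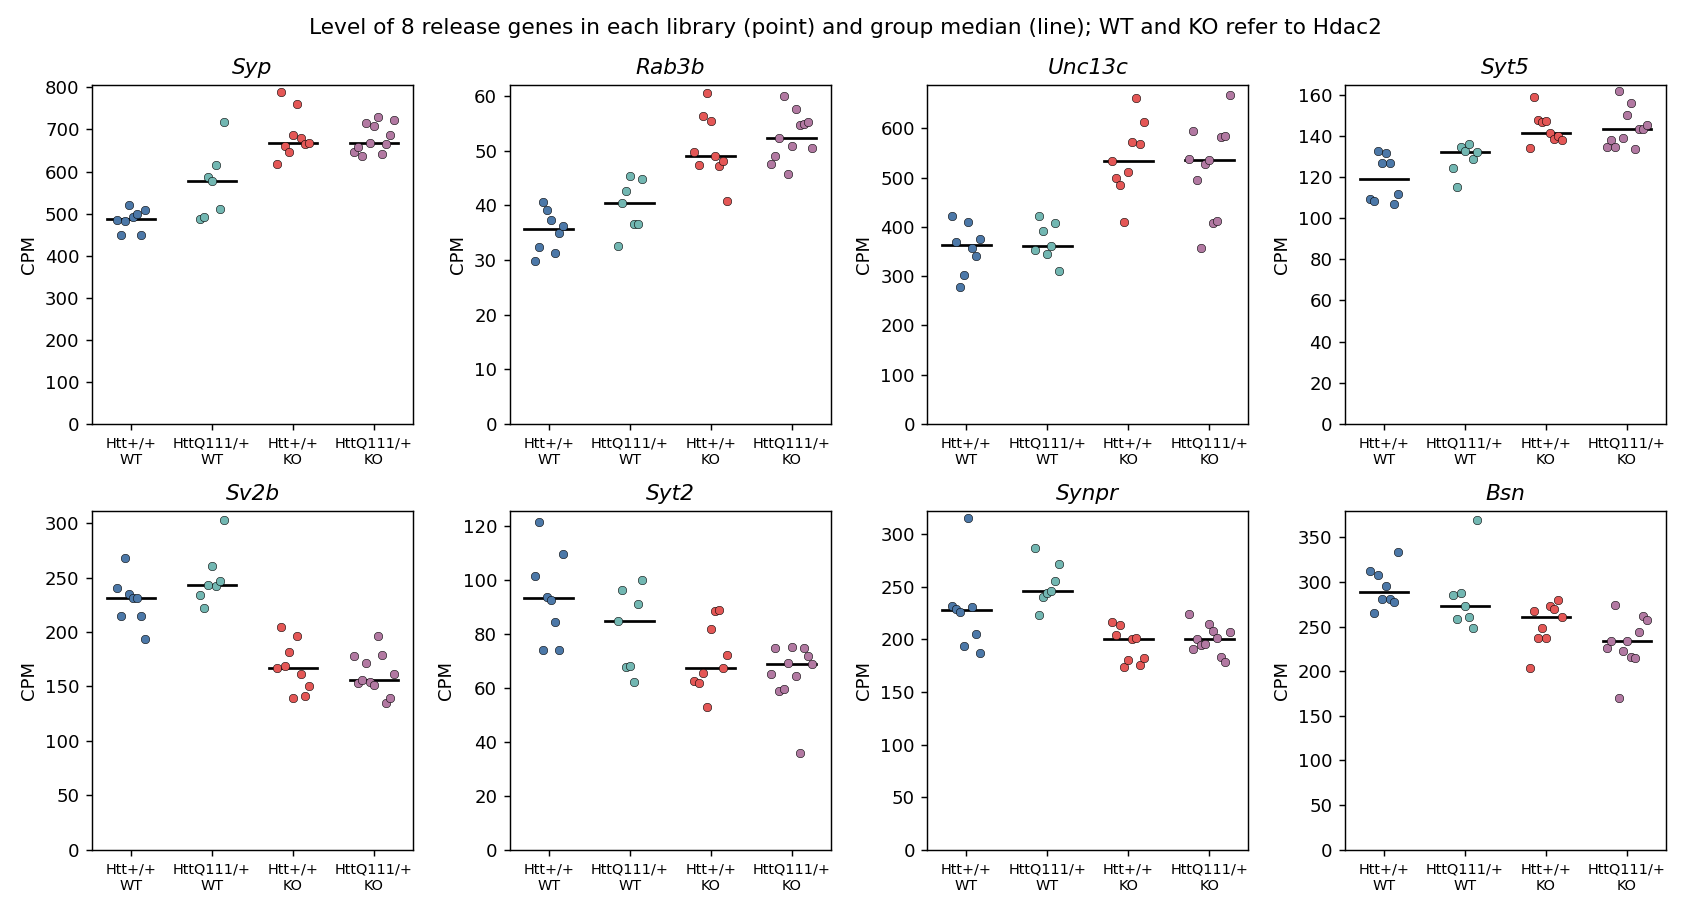
CPM of 8 release genes (y axes from 0) in each of the 35 libraries (points) by genotype group, with lines at the group medians. Syp, Rab3b, Unc13c and Syt5 lie higher and Sv2b, Syt2, Synpr and Bsn lower in the Hdac2 KO groups, as for Syp with medians of 488 and 578 CPM in the WT groups and 667 and 669 CPM in the KO groups.

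The same question was asked within each Htt genotype. In Htt+/+ mice 18 of the 44 identifiers were called (40.9%, against 17.8% of all genes), 9 higher (9.06% of all genes) and 9 lower (8.79%). In HttQ111/+ mice 21 were called (47.7%, against 16.5% of all genes), 8 higher (7.68% of all genes) and 13 lower (8.86%). The mice of the 2 comparisons are different, and 15 identifiers were called in both, all in the same direction. Rab3b was at 0.61 and 0.45 on the log2 scale in Htt+/+ and HttQ111/+ mice, Unc13c at 0.48 and 0.35, Syt2 at -0.66 and -0.47 and Sv2b at -0.35 and -0.46. Syngr3, Unc13a and Unc13b were called in Htt+/+ mice alone, and Stxbp5, Syt1, Synpr, Syngr1, Slc32a1 and Synj1 in HttQ111/+ mice alone, although none of these 9 passed the test of a difference between the Htt genotypes. KO and WT ranges did not overlap for Syp, Syt5 and Rab3b in Htt+/+ mice (4.70% of all genes) and for Rab3b, Sv2b and Syt1 in HttQ111/+ mice (1.43% of all genes). Between HttQ111/+ Hdac2 KO and Htt+/+ Hdac2 WT striata 22 identifiers were called (50.0%, against 21.2% of all genes), 9 higher and 13 lower.

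**Figure D4:**
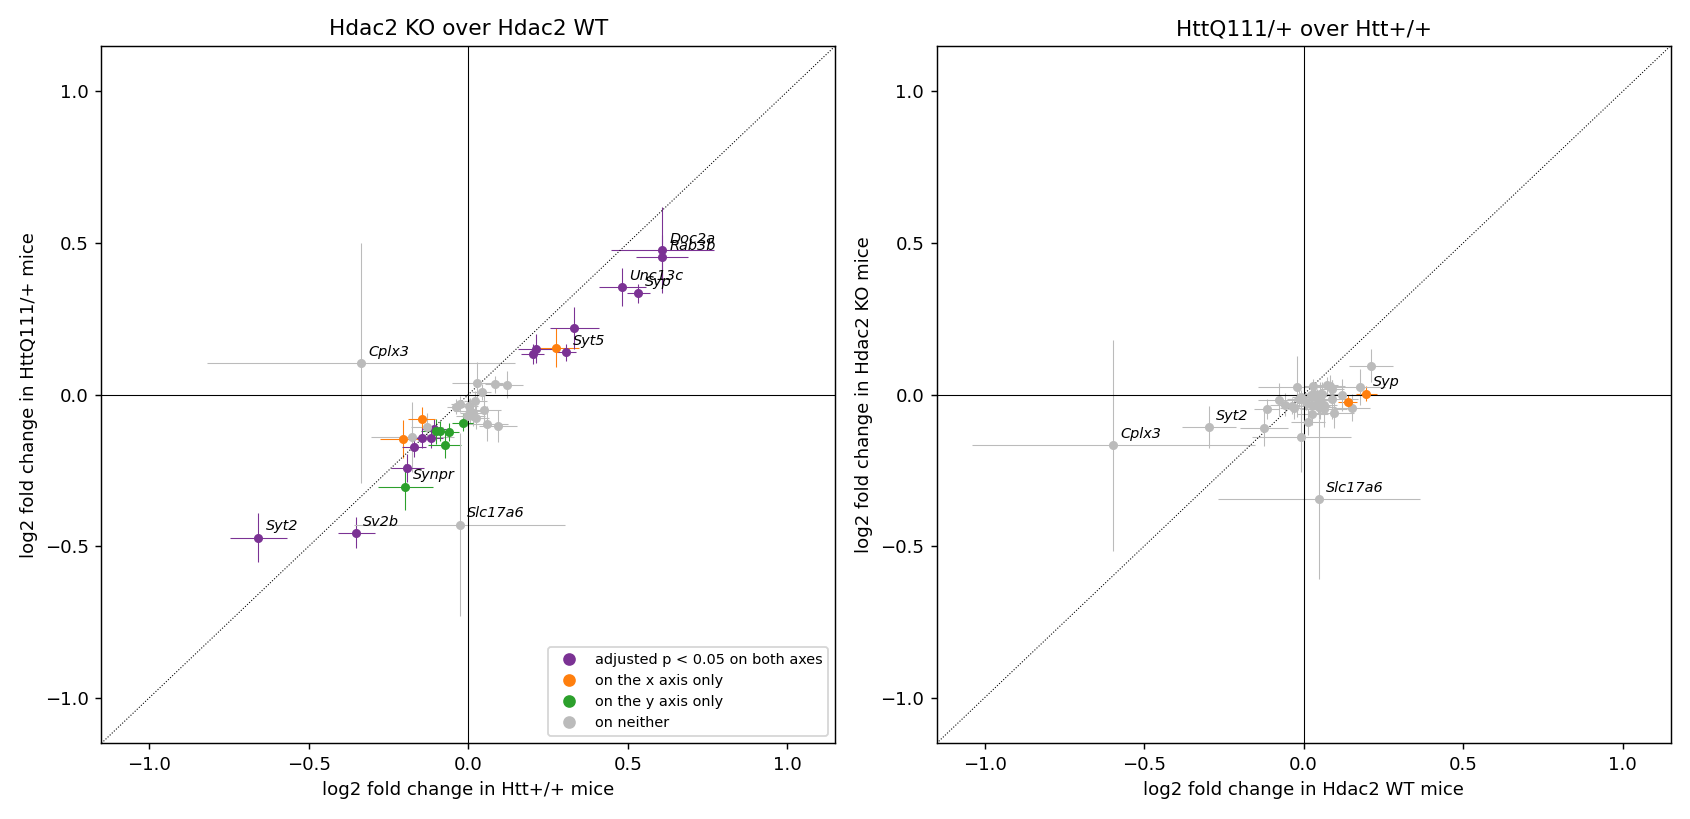
Log2 fold changes of the 44 identifiers with bars of 1 SE. In the left panel, Hdac2 KO over WT in Htt+/+ mice (x) and in HttQ111/+ mice (y), the 15 identifiers called on both axes lie on the same side of 0; in the right panel, HttQ111/+ over Htt+/+ with Hdac2 WT (x) and with Hdac2 KO (y), 2 passed on the x axis and 0 on the y axis.

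Whether the Hdac2 KO effect differed between the Htt genotypes was tested directly. By edgeR 0 of 44 identifiers passed (0.00577% of all genes did), 3 had an unadjusted p under 0.05, and DESeq2 called 1, Syp. Syp was at 0.53 ± 0.036 in Htt+/+ and 0.33 ± 0.031 in HttQ111/+ mice, a difference of -0.19 ± 0.041 (edgeR adjusted p = 0.432, DESeq2 adjusted p = 0.0274, and 0.164 to 1.00 under the other alternatives). Syt5 was at 0.31 and 0.14, a difference of -0.16 ± 0.038 (edgeR adjusted p = 0.47, and 0.131 to 1.00 under the alternatives). Syt4 was at 0.09 and -0.10, a difference of -0.20 ± 0.071 (edgeR adjusted p = 0.725, and 0.235 to 1.00 under the alternatives).

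The HttQ111 allele itself was accompanied by few changes in these genes. With Hdac2 WT 2 of 44 identifiers were called (0.403% of all genes), both higher in HttQ111/+ striata: Syp at 0.20 ± 0.033 (edgeR adjusted p = 0.00432) and Syt5 at 0.14 ± 0.030 (edgeR adjusted p = 0.0344). The ranges of both genes overlapped between the Htt genotypes, and neither was called without covariates. Without the library highest in cortical markers Syp was called (edgeR adjusted p = 0.0153) and Syt5 was not (edgeR adjusted p = 0.0614). With Hdac2 KO 0 of 44 were called by edgeR or DESeq2 (0.00584% of all genes by edgeR), 1 had an unadjusted p under 0.05, and Syp was at 0.00 ± 0.026. Averaged over the Hdac2 genotypes 1 identifier was called (1.27% of all genes), Syp at 0.10 ± 0.022 (edgeR adjusted p = 0.0154, and 0.00124 to 0.233 under the alternatives), and it was not called without the library highest in cortical markers (edgeR adjusted p = 0.0504). MSN markers were lower in HttQ111/+ striata, by differences in mean log2 CPM of -0.33 with Hdac2 WT and -0.15 with Hdac2 KO (exact two-sided permutation tests, adjusted p = 0.0224 and 0.0289 over 36 tests of 9 marker lists), and their part in these values was not tested. The other 8 lists had no adjusted p under 0.05 on this scale. On the log2 of the summed CPM, microglia markers were higher with Hdac2 KO in Htt+/+ mice, by 0.14 (exact permutation test, adjusted p = 0.038). In HttQ111/+ mice that difference was 0.11 (exact permutation test, adjusted p = 0.191).

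Several members were high where cortical markers were high. Slc17a6 was at 8.29 CPM in HttQ111/+ Hdac2 WT replicate 7 and 2.67 CPM in Htt+/+ Hdac2 KO replicate 6, against 0.112 to 1.02 CPM in the others. Cplx3, for a complexin, was at 20.9 and 10.6 CPM in the same libraries and at most 5.63 CPM in the others. Stx1a was at 81.6, 57.4 and 46.0 CPM in the 3 libraries highest in cortical markers and at most 39.5 CPM in the others. The part of cortical RNA in the values of these genes was not tested.

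**Figure D5:**
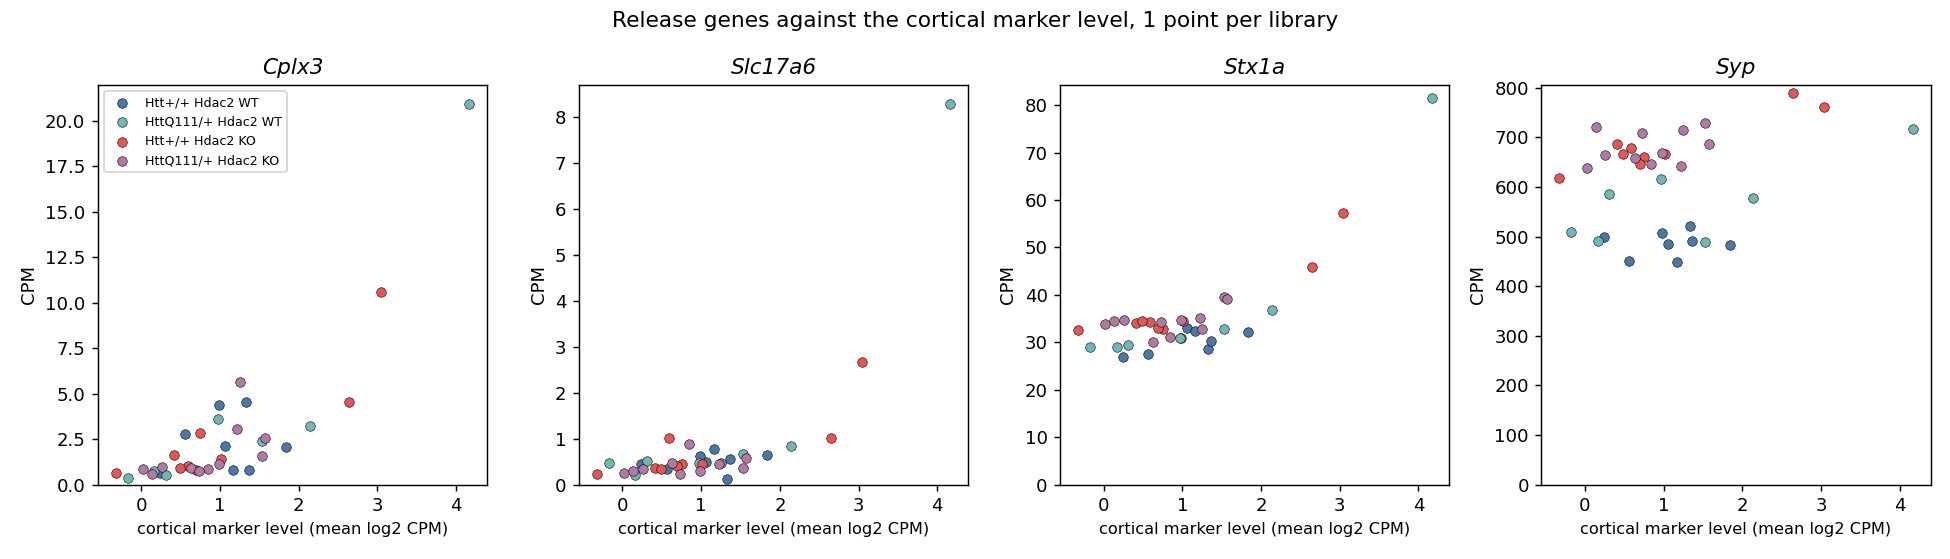
CPM of 4 release genes (y, from 0) against the mean log2 CPM of the cortical marker list (x), 1 point a library, coloured by group. Cplx3, Slc17a6 and Stx1a are highest in the library at 4.17 on the x axis, and Syp is lower in the Hdac2 WT libraries except in that library.

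Other genes of the release pathway, listed by function, were counted beside the members. Of 74 tested, 15 were higher and 18 lower in the average Hdac2 KO effect (44.6%, against 25.0% of all genes). Once extraction date was modelled instead 6 were called, 2 higher and 4 lower (against 4.62% of all genes), and 5 of these were among the 33. By role, 4 of 13 SNARE genes were higher and 5 lower, 1 of 10 calcium sensors was higher and 3 lower, and of 11 vesicle membrane genes 0 were higher and 2 lower. Of 7 synapsin and Rab3 genes 3 were higher and 1 lower, of 12 active zone genes 5 were higher and 1 lower, and of 21 endocytosis genes 2 were higher and 6 lower. The leading rises were those of Rab3d, a Rab3 paralogue (0.46 ± 0.079, edgeR adjusted p = 5.05e-05), Ppfia4, for the active zone protein liprin-alpha-4 (0.34 ± 0.024, edgeR adjusted p = 5.23e-12), and Rph3a, for the Rab3 effector rabphilin (0.27 ± 0.037, edgeR adjusted p = 1.4e-06). Ppfia4 ran from 84.1 to 98.7 CPM in the WT libraries and from 98.2 to 139.8 CPM in the KO libraries, which overlapped slightly. Among the genes called, the deepest falls were those of the synaptotagmins Syt6 (-0.32 ± 0.040, edgeR adjusted p = 4.02e-07) and Syt9 (-0.26 ± 0.065, edgeR adjusted p = 0.00276) and of Napa, for alpha-SNAP, which helps to take SNARE complexes apart (-0.28 ± 0.028, edgeR adjusted p = 4.02e-09). Napa ran from 124 to 155 CPM in the WT libraries and from 102 to 119 CPM in the KO libraries, without overlap. With extraction date in the model Ppfia4, Napa and Syt6 were called, at 0.41 ± 0.071, -0.31 ± 0.062 and -0.37 ± 0.11 (edgeR adjusted p = 0.000402, 0.00197 and 0.0397). Rab3d and Rph3a were not, at 0.26 ± 0.13 and 0.26 ± 0.11, and Syt9 turned to 0.04 ± 0.098 (edgeR adjusted p = 0.283, 0.208 and 0.891). Syt10, a further synaptotagmin, had an estimate of -0.33 ± 0.16 and did not pass (edgeR adjusted p = 0.134).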

How the data were processed

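Striatal RNA of 35 mice was sequenced by the authors as paired 75-base reads of stranded mRNA libraries. Raw counts per gene, with no normalization, were deposited by the authors, who aligned reads to GRCm38 (Ensembl 75) with GSNAP and counted unique alignments with bedtools over whole gene intervals, so intronic reads are included. The authors also left out 1 Htt+/+ Hdac2 WT library for signs of DNA contamination.

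Of 39109 entries, 92 spike-ins, 6152 genes under 250 nt and 2 mitochondrial rRNA genes were left out, and a gene was tested where no library of at least 1 group compared had under 6 counts. All 35 libraries entered each fit (R 4.3.3, edgeR 4.0.16, TMM, quasi-likelihood F test, 9 surrogate variables from sva 3.50.0, seed 1), with Benjamini-Hochberg adjustment over all genes tested and a threshold of 0.05. DESeq2 1.42.0 and other covariates, filters and left-out libraries were alternatives. The average effects and the interaction were fitted to 17346 genes. Marker levels were compared by exact two-sided permutation tests. Promoter windows came from RefSeq. The scripts were tested on simulated counts.

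Full statistics are given for the 6 members that rose most and the 6 that fell most in the average Hdac2 effect, those called in the average HttQ111 effect, the 3 with the lowest interaction p and 3 other release genes in each direction. Further members were described after their values were seen. The members and lists were chosen with earlier results of these data known. Of 25 members that overlap another gene, 6 share its strand, with at most 6 counts in that neighbour over all libraries. On the opposite strand, Ino80e had 63728 counts against 3604 of Doc2a, and Timp3 had 370178 against 31763 of Syn3. Whether reads of these neighbours were counted for the members was not tested.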

Additional observations from a re-analysis of the deposited data

Results flagged for a closer look

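Within each group of 7 to 9 mice, a library was picked out when it lay far from the others for its number (Dixon's test, of which chance alone gives about 1 in 20), and 27 of 132 sets of libraries (44 identifiers in 3 groups) held one. The 11 HttQ111/+ Hdac2 KO mice were not tested in this way. Of these, 16 were in HttQ111/+ Hdac2 WT replicate 7, the library highest in cortical markers. There Vamp1 was at 97.3, Vamp2 at 964, Snap25 at 1009, Stx1a at 81.6, Cplx1 at 609, Cplx3 at 20.9, Syt1 at 1316, Doc2a at 6.05, Slc17a6 at 8.29, Syn1 at 325, Rab3a at 418, Rims1 at 202, Bsn at 369.7, Amph at 130.4 and Dnm1 at 664 CPM, each the highest of its group, and Doc2b at 111 CPM, the lowest. In Htt+/+ Hdac2 KO replicate 6, second in cortical markers, Cplx3 at 10.6 and Slc17a6 at 2.67 CPM were the highest of their group.

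In Htt+/+ Hdac2 WT replicate 8, which was not high in cortical markers, Syt7 at 222, Doc2b at 165 and Unc13a at 400.1 CPM were the highest and Dnm1 at 465 CPM the lowest of the group. In Htt+/+ Hdac2 KO replicate 4 Syt7 at 227 and Unc13a at 381 CPM were the highest. The remaining values were those of Vamp1 at 93.9 CPM in Htt+/+ Hdac2 WT replicate 2, Syt11 at 945 CPM in replicate 1 and Synpr at 315 CPM in replicate 6 of the same group.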

How the results depend on the processing

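With extraction date replacing the surrogate variables, members called fell to 4 for the average Hdac2 KO effect, 4 in Htt+/+ mice, 3 in HttQ111/+ mice and 4 between HttQ111/+ Hdac2 KO and Htt+/+ Hdac2 WT striata, that of the other release genes fell to 6, and Doc2a turned to -0.0435. Stx1a, Cplx2 and Amph turned direction too. In the date fit the share of all genes called for the average Hdac2 KO effect was also lower, as given with the other release genes. The member counts in this section carry no share of all genes, so they are not compared with other genes. Under the 14 other alternatives 19 to 25 members were called for the average Hdac2 KO effect. For the HttQ111 effect with Hdac2 WT, 0 members were called with no covariate, with sex, with the replicate block, in males only and with only the libraries of the groups compared. There was 1 call with the cortical marker level, with no count filter, and without the 3 libraries or the 1 library highest in cortical markers, and there were 5 without the mice whose ID begins with A. For the average HttQ111 effect, 0 were called with no covariate, sex, cortical marker level or replicate block, in males only, and without the 3 libraries or the 1 library highest in cortical markers, 2 by DESeq2 and 3 without the mice whose ID begins with A. DESeq2 called 1 interaction. Among HttQ111/+ mice, those whose ID begins with V had longer repeats than those whose ID begins with A or Z. Leaving out the A mice therefore also changes the mix of repeat lengths. The causes were not tested. The alternatives that leave out the libraries high in cortical markers were chosen after seeing the data.

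Replicate numbers did not pair the mice. Deviations of same-numbered mice correlated at -0.20 to 0.27, and in each of 4 comparisons 1 mouse matched its own number best. With the replicate block in place of the surrogate variables 19 members were called for the average Hdac2 KO effect, of which 18 were among the 25, and 17 and 14 within Htt+/+ and HttQ111/+ mice. Slc17a6, Cplx3 and Doc2a had the fewest counts and the largest SEs, which limits what can be seen for them.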
